A study of Danio rerio with 25 samples.

Results

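miR-29a (dre-mir-29a) and miR-29b (dre-mir-29b), the members of the miR-29 family that the deposited table lists, were followed in brain libraries of male zebrafish (Danio rerio) from young adulthood to old age. They were chosen by name: 3 of the 346 hairpin entries carry it, 1 for miR-29a and 2 for miR-29b (copies 1 and 2), and after summing copies the family makes up 2 of 217 miRNA names. The fish were of strain AB JxTü, and small RNA was sequenced from 5 libraries at each of 5 ages. The labels of the 6-month fish give the strain alone. Those of the 12-month fish add Tg(flk:mCherry), a line named for an endothelial promoter; the 24-month labels again give the strain alone; the 36-month fish carried Tg(pu.1:GFP), named for a myeloid gene, and the 42-month fish Tg(wt1a:GFP), named for a Wilms tumour gene homologue. Only 24 against 6 months is therefore free of a named transgene on both sides, and in every other pair of ages line and age cannot be told apart. Every library title holds a number that no other title shares, or a pair of them at 6 months. Whatever the pairs stand for, it cannot be told apart from age in any comparison with 6 months, that of 24 months included. What the numbers stand for and whether fish were pooled is not stated, so p-values measure the spread between these libraries.

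MicroRNAs are short RNAs that pair with messenger RNAs, chiefly through the seed near their 5′ end, and lower the output of those messengers. The miR-29 family is known in mammals for repressing collagens, elastin and other matrix genes and DNA methyltransferases. In the mouse brain it rises as neurons mature and is also found in astrocytes, and in the killifish brain it rises with age and represses an iron regulatory protein. Its members share their seed and so can act on overlapping targets. Family members with nearly identical mature sequences can share reads, and how far the counts of miR-29a and miR-29b did so is not known here.

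Library totals ran from 3983783 to 20924118 miRNA counts, and within them miR-29a had 3916 to 39086 counts and miR-29b 736 to 7010. Both members passed the filter on low counts, as did 197 of the 217 miRNAs. Markers of brain were present throughout: 9 of 9 miRNAs known from neurons were in the table, none of them at a total of 0, and they summed to 137192 to 186132 counts per 1000000 (CPM) of the library total. Markers of other tissues were present as well, at sums that varied between ages and libraries. The miR-200 family, known from epithelia, averaged 3956, 841, 207, 1779 and 190 CPM from 6 to 42 months, and 3 miRNAs known from skin (miR-205 with both forms of miR-203) averaged 1523, 2067, 281, 574 and 247 CPM. Either sum exceeded 2000 CPM in 7 libraries: replicate 1 at 36 months, replicates 3, 4 and 5 at 12 months, and replicates 1, 2 and 5 at 6 months. Below, results are also given without them, mainly where that ends a call.

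miR-29a, the more abundant member, was low at 6 months and higher at every later age. Its levels, in CPM scaled by trimmed mean of M values (TMM), were 984, 872, 891, 1017 and 912 in the 6-month libraries and 1527, 1240, 1405, 1004 and 1377 in the 12-month libraries. At 12 months 4 of 5 libraries therefore lay above all 5 of 6 months, and replicate 4, one of the libraries rich in skin miRNAs, lay among them. Replicates 3 and 5 of 12 months, rich in skin miRNAs too, were among the 4 that lay above. The 24-month libraries had 1345, 1497, 1304, 1302 and 1457 CPM, the 36-month libraries 1439, 1683, 1923, 1670 and 1519 CPM, and the 42-month libraries 1753, 1293, 1659, 1518 and 1623 CPM. Each of these 15 libraries was above every 6-month library. The means were 935 ± 62.2, 1311 ± 199.6, 1381 ± 90.6, 1647 ± 185 and 1569 ± 176 CPM from the youngest age to the oldest (SD, n = 5 each), or 140%, 148%, 176% and 168% of the 6-month mean at the 4 later ages.

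miR-29b was lower in level than miR-29a in all 25 libraries, and stood above its 6-month level from 24 months on. Its levels were 187, 177, 171, 227 and 171 CPM at 6 months and 283, 162, 187, 182 and 210 CPM at 12 months. The range of 12 months holds that of 6 months, with 12-month replicate 1 above all of 6 months and replicate 2 below all. At 24 months they were 227, 403, 271, 334 and 350 CPM, at 36 months 414, 688, 345, 657 and 337 CPM, and at 42 months 426, 255, 410, 448 and 407 CPM. All libraries of 24, 36 and 42 months lay above all of 6 months, by the narrowest margin at 24 months, where replicate 1 had 226.8 CPM against 226.6 CPM in 6-month replicate 4. In CPM of library totals, an alternative chosen after seeing the data, this separation of 24 from 6 months was lost for miR-29b, with 217.7 CPM in the lowest 24-month library against 227.7 CPM in the highest 6-month library, while those of 36 and 42 months, and all 3 of miR-29a, were still there. The means were 186.7 ± 23.2, 204.9 ± 47.1, 317 ± 69.1, 488 ± 171 and 389 ± 76.7 CPM (SD, n = 5 each), or 110%, 170%, 261% and 208% of the 6-month mean at 12, 24, 36 and 42 months.

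**Figure D1:**
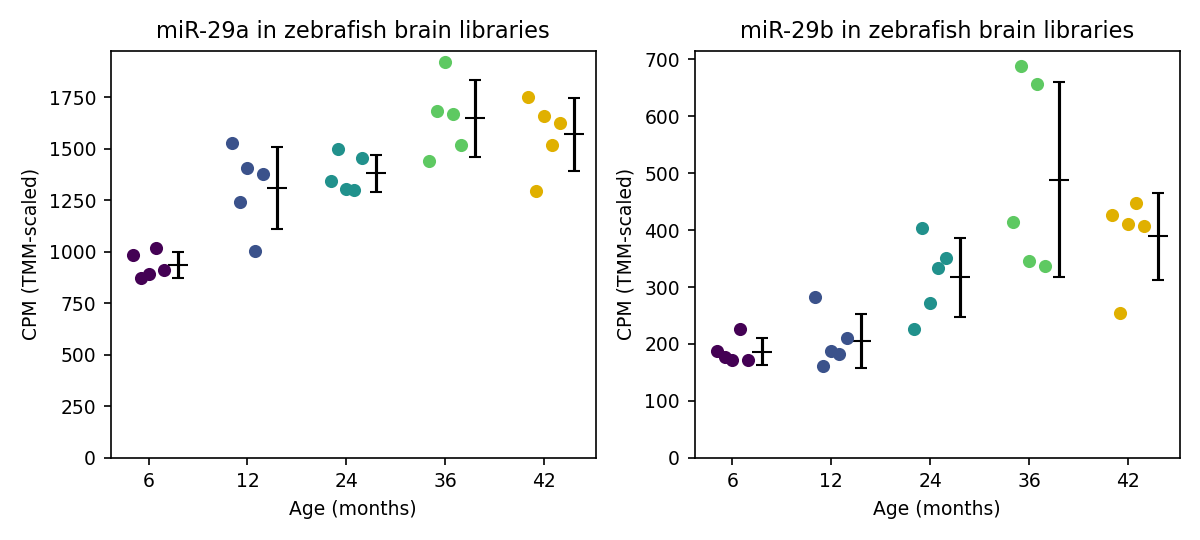
TMM-scaled CPM of miR-29a (left) and miR-29b (right) against age in months, with 1 point per library, replicates 1 to 5 from left to right within an age, and the mean ± SD (n = 5) as a black bar beside them. miR-29a is already higher at 12 months in 4 of 5 libraries, while miR-29b at 12 months overlaps 6 months and is higher from 24 months on.

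The order of mean levels was the same for both members: 6, 12, 24, 42 and 36 months from lowest to highest. The ranges of neighbours in that order overlapped in all 4 pairs for both members. For miR-29a the step of 12 against 6 months exceeded the spread between libraries by the edgeR test given below, and the steps 24 against 12 and 42 against 36 months did not. For miR-29b none of these 3 steps passed it, and 42 against 24 months was not tested.

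The question put to the 5 ages was whether the level of a miRNA differs between any of them. Both members differed between ages (edgeR quasi-likelihood F test with Benjamini-Hochberg adjustment over 197 miRNAs, adjusted p 3.42e-05 for miR-29a and 1.28e-04 for miR-29b). So did 47.7% of all tested miRNAs, which makes that call common in these libraries. By unadjusted p the members stood 4th and 6th of 197. The members were chosen with results of these data known, so these ranks and those given below are a description only. In bulk tissue, a change in the make-up of cells and a change in the RNA of each cell cannot be told apart.

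On a straight line through age, both members rose. The slope of miR-29b was 0.45 log2 units per year (SE 0.07, 95% interval 0.31 to 0.58, edgeR adjusted p 1.83e-05), equal to 36.3% per year, and that of miR-29a was 0.22 (SE 0.04, interval 0.14 to 0.29, edgeR adjusted p 8.51e-05), equal to 16.4% per year. A rise was called for 7.61% of all tested miRNAs, and the median slope of all was -0.01. The slope of miR-29b ranked 4th by unadjusted p and that of miR-29a 6th. Without the 6-month group the slope of miR-29a was 0.13 (edgeR adjusted p 0.0444), while that of miR-29b was 0.44 (edgeR adjusted p 0.0105). Without the 7 libraries rich in epithelial or skin miRNAs the slopes were 0.20 for miR-29a and 0.40 for miR-29b, and with both sums as covariates they were 0.20 and 0.45, called in each case.

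The age profile of miR-29a bent away from a line (edgeR F test of the 3 further polynomial terms, adjusted p 0.0303), as did 25.9% of all tested miRNAs. That call was lost without the 7 libraries rich in epithelial or skin miRNAs (adjusted p 0.119), with both sums as covariates (0.106) and without any 1 of 6-month replicates 3 and 5 and 12-month replicates 1, 3 and 5 (edgeR adjusted p between 0.0532 and 0.0602). For miR-29b the same test did not pass the threshold (edgeR adjusted p 0.178).

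At 24 against 6 months, the pair without a named transgene, both members were higher at 24 months. miR-29a averaged 1381 CPM at 24 months and 935 CPM at 6 months, a log2 change of 0.56 (SE 0.10, 95% interval 0.35 to 0.77, edgeR adjusted p 5.42e-04), which is 1.48-fold. miR-29b averaged 317 CPM at 24 months and 186.7 CPM at 6 months, a log2 change of 0.76 (SE 0.21, interval 0.32 to 1.21, edgeR adjusted p 0.0153), which is 1.70-fold. The background is that 13.7% of tested miRNAs were called higher, and that in 7.61% the 5 libraries of 24 months all lay above the 5 of 6 months. Without the 7 libraries rich in epithelial or skin miRNAs, which leaves 2 libraries at 6 months, the change of miR-29a was 0.52 and remained called (edgeR adjusted p 0.0160), and that of miR-29b was 0.67 (SE 0.35) and was not (edgeR adjusted p 0.262). With both sums as covariates neither was called, at 0.43 for miR-29a (edgeR adjusted p 0.0522) and 0.68 for miR-29b (edgeR adjusted p 0.175). Scaled by library totals only, which moved the median change of all tested miRNAs to -0.14 in place of 0.04, both members were called at smaller changes of 0.39 and 0.60.

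The question of the first step was what differs between 12 and 6 months. miR-29a was higher at 12 months by 0.49 log2 units (SE 0.10, 95% interval 0.28 to 0.70, edgeR adjusted p 0.00268), a 1.40-fold change, where 7.11% of tested miRNAs were called higher. For miR-29b the change was 0.13 (SE 0.21, edgeR adjusted p 0.649), and its interval runs from -0.30 to 0.57, so that a rise as large as that of miR-29a lies within it. Without 12-month replicate 1, the highest library of that age, the estimate for miR-29b was -0.01. For miR-29a, leaving out the 7 libraries rich in epithelial or skin miRNAs left 2 at 6 and 2 at 12 months. Its change was then 0.52 (edgeR adjusted p 0.0441). With both sums as covariates it was 0.45 (edgeR adjusted p 0.0326), and in a fit of the 10 libraries 0.48 (edgeR adjusted p 0.0354). The call of miR-29a remained in each, at a larger adjusted p. The difference between the members in this step was not tested.

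The next steps had the members the other way round in size. At 24 against 12 months miR-29b changed by 0.63 (SE 0.21, 95% interval 0.19 to 1.07, edgeR adjusted p 0.0603) and miR-29a by 0.08 (SE 0.10, interval -0.13 to 0.28, edgeR adjusted p 0.631; -0.0543 with library totals only, 0.0011 without the 7 libraries rich in epithelial or skin miRNAs and -0.0236 with both sums as covariates), where 4.06% of tested miRNAs were called higher. The change of miR-29b passed the threshold without any 1 of 6 libraries (12-month replicate 1, 24-month replicate 1, 36-month replicates 2, 4 and 5 and 42-month replicate 2, edgeR adjusted p between 0.0195 and 0.0492). The 36-month and 42-month libraries among these belong to neither age compared. Without the 7 libraries rich in epithelial or skin miRNAs, miR-29b changed by 0.52 and was not called (edgeR adjusted p 0.517). With both sums as covariates it changed by 0.54 (edgeR adjusted p 0.230). At 36 against 24 months miR-29b changed by 0.62 (SE 0.21, interval 0.18 to 1.06, edgeR adjusted p 0.120) and miR-29a by 0.25 (SE 0.10, interval 0.04 to 0.46, edgeR adjusted p 0.138), where 2.54% were called higher. That of miR-29b passed without 36-month replicate 3 (edgeR adjusted p 0.0441) or 5 (0.0414). It was 0.71 without the 7 libraries rich in epithelial or skin miRNAs (edgeR adjusted p 0.173). With both sums as covariates it was 0.67 (edgeR adjusted p 0.103). With library totals only both members passed, at 0.71 for miR-29b and 0.33 for miR-29a (edgeR adjusted p 0.0492 each).

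In the last step, 42 against 36 months, both estimates were below 0. The change was -0.33 for miR-29b (SE 0.21, 95% interval -0.77 to 0.11, edgeR adjusted p 0.562) and -0.07 for miR-29a (SE 0.10, interval -0.28 to 0.14, edgeR adjusted p 0.804). Neither passed the threshold. Without 36-month replicate 3, the highest library of miR-29a, its estimate was 0.04, and it was -0.11 without the 7 libraries rich in epithelial or skin miRNAs and -0.14 with both sums as covariates. The estimate for miR-29b was -0.17 without 36-month replicate 2, -0.20 without 36-month replicate 4 and -0.21 without 42-month replicate 2.

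The oldest ages were set against 6 months, with the line differing too. At 36 against 6 months miR-29b was higher by 1.39 log2 units (SE 0.22, 95% interval 0.94 to 1.83, edgeR adjusted p 7.26e-05), or 2.61-fold, and miR-29a by 0.82 (SE 0.10, interval 0.61 to 1.03, edgeR adjusted p 7.12e-06), or 1.76-fold. Here 8.12% of tested miRNAs were called higher, the libraries of 36 months all lay above those of 6 months in 5.08%, and miR-29a had the smallest unadjusted p of the 197. At 42 against 6 months miR-29b was higher by 1.06 (SE 0.21, interval 0.62 to 1.50, edgeR adjusted p 8.42e-04) and miR-29a by 0.75 (SE 0.10, interval 0.54 to 0.96, edgeR adjusted p 1.14e-05), where 14.2% were called higher and in 10.7% all libraries of 42 months lay above those of 6 months. Without the 7 libraries rich in epithelial or skin miRNAs, miR-29b was higher at 42 than at 6 months by 0.99 (SE 0.35) and was not called (edgeR adjusted p 0.0859). These comparisons share the 6-month libraries with each other and with 24 and 12 against 6 months.

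**Figure D2:**
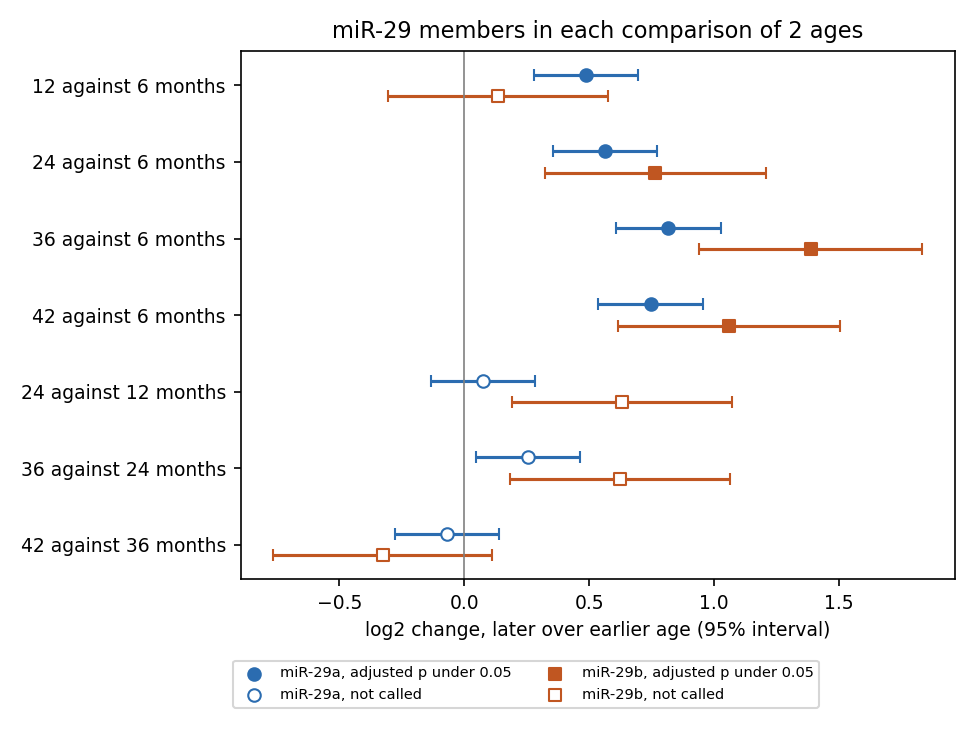
log2 change of miR-29a (circles) and miR-29b (squares) in 7 comparisons of 2 ages, later over earlier, with 95% intervals from the edgeR fit on 25 libraries; filled symbols have an adjusted p under 0.05. miR-29a has its largest successive step at 12 against 6 months (0.49) and miR-29b has steps of 0.63 and 0.62 at 24 against 12 and 36 against 24 months, neither of them called.

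The ratio of the members within a library cannot be moved by scaling between libraries, and is given here library by library. For each 100 counts of miR-29a there were 19.1, 20.3, 19.2, 22.3 and 18.8 counts of miR-29b at 6 months, and 18.5, 13.1, 13.3, 18.1 and 15.3 at 12 months. All 12-month libraries lay below all 6-month libraries in this ratio, by a narrow margin. The closest were 12-month replicate 1 at 18.55 and 6-month replicate 5 at 18.79. That gap is smaller than the counting error of miR-29b in 6-month replicate 5 (3.69%), so the order of these libraries is not settled. How often other pairs of miRNAs separate in this way was not computed. It was 16.9, 26.9, 20.8, 25.7 and 24.0 at 24 months, 28.7, 40.9, 17.9, 39.3 and 22.2 at 36 months and 24.3, 19.7, 24.7, 29.5 and 25.1 at 42 months. The 42-month libraries lay above all 12-month libraries, and 4 of 5 lay above all of 6 months. The medians were 19.2, 15.3, 24.0, 28.7 and 24.7 from the youngest to the oldest. They are given as a description, with no test, since the members were chosen with results of these data known.

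**Figure D3:**
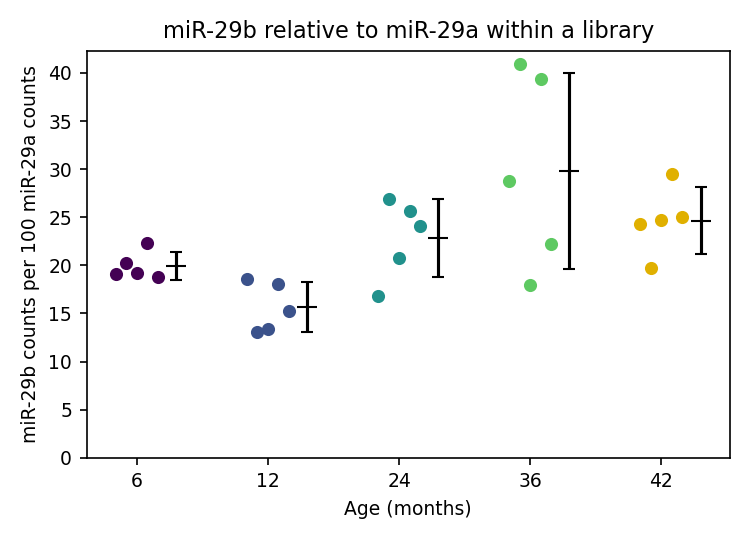
Counts of miR-29b per 100 counts of miR-29a in the same library against age in months, 1 point per library and mean ± SD (n = 5) as a black bar. The 12-month libraries (13.1 to 18.5) lie below the 6-month libraries (18.8 to 22.3), with a gap at the closest libraries that is within counting error. The 36-month libraries spread from 17.9 to 40.9.

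The spread between libraries was wider for miR-29b than for miR-29a at every age. The coefficient of variation of miR-29b was 12.4%, 23.0%, 21.8%, 35.1% and 19.7% from 6 to 42 months, and that of miR-29a 6.65%, 15.2%, 6.56%, 11.3% and 11.2%. Among all tested miRNAs the median coefficient of variation was 13.5%, 16.6%, 17.5%, 18.0% and 14.7% from 6 to 42 months. In the same order, 46.7%, 59.4%, 61.9%, 74.1% and 66.5% of them had a lower value than miR-29b. For miR-29a these shares were 14.2%, 44.7%, 6.60%, 26.9% and 34.5%. The largest counting error in any library was 3.69% of the miR-29b count and 1.60% of the miR-29a count. The widest group was miR-29b at 36 months, where replicates 2 and 4 had 688 and 657 CPM and replicates 1, 3 and 5 had 337 to 414 CPM. Those replicates 2 and 4 also had the highest ratios, 40.9 and 39.3, and the smallest library totals of their age, 6866940 and 5237318 counts. On deviations from the age means, the log2 ratio and the log2 library total had an r of -0.4 over the 25 libraries (permutation p 0.0471, adjusted over 12 tests 0.0807). The permutations made no allowance for the age means taken out, so this p-value is somewhat too small. The epithelial sum was 211 and 287 CPM in replicates 2 and 4, 135 and 139 CPM in replicates 3 and 5 and 8123 CPM in replicate 1.

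Both members varied together across the 25 libraries. The correlation of their log2 CPM was 0.790 by Pearson (permutation p 1e-05, the smallest that 100000 permutations can give, adjusted over 6 tests 2e-05) and 0.853 by Spearman (permutation p 1e-05, adjusted 2e-05). These permutations ignored the age groups, so their p-values do not separate a shift shared within an age from variation between single libraries. Without the 2 libraries farthest from the median of miR-29a, 6-month replicates 2 and 3, Pearson's r was 0.759 (permutation p 3e-05, adjusted 4.5e-05). Within ages, on deviations from the age means, r was 0.485 (permutation p 0.0135, adjusted 0.0135) and rho 0.532 (permutation p 0.00662, adjusted 0.00794). Deviations were permuted freely across ages with no allowance for the age means taken out, so these p-values are somewhat too small. The relation within ages was positive as well, at a smaller r. Reads shared between the members could not be separated from it with these counts.

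**Figure D4:**
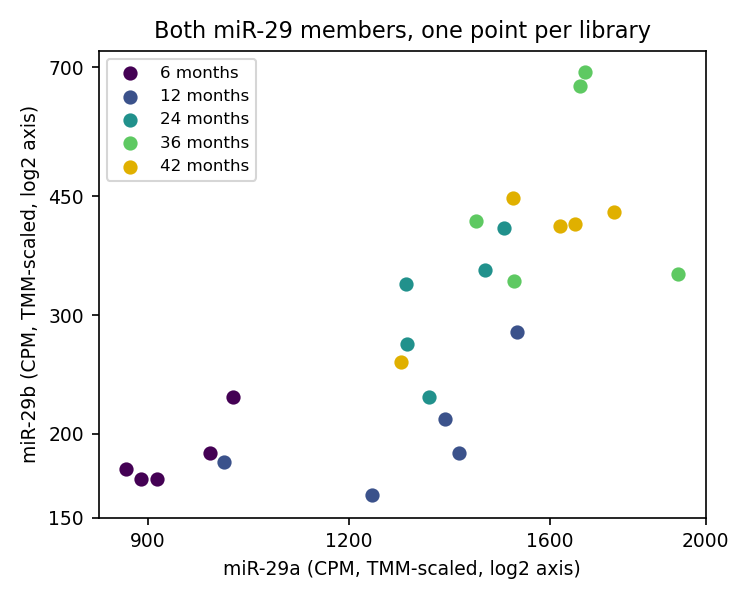
miR-29b against miR-29a, both in TMM-scaled CPM on log2 axes, 1 point per library coloured by age. Libraries of 6 months lie at the lower left, and 4 of 5 libraries of 12 months lie to the right of them. Replicate 4 of 12 months lies among the 6-month libraries (1004 CPM of miR-29a). In miR-29b the 12-month libraries lie within the range of 6 months except for replicate 1 (283 CPM), which lies above it, and replicate 2 (162 CPM), which lies below it. At the top stand 36-month replicates 2 and 4 (688 and 657 CPM).

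The 2 listed copies of miR-29b had nearly equal counts. Copy 1 held between 48.6% and 54.5% of the miR-29b counts of a library, with medians of 52.0%, 53.3%, 53.5%, 51.4% and 52.5% from 6 to 42 months. In 15 of 25 libraries the exact (Clopper-Pearson) 95% binomial interval lay above an even split of 50%, and in the other 10 it included it. Tested apart, copy 1 rose by 0.43 and copy 2 by 0.46 log2 units per year (edgeR adjusted p 2.64e-05 and 6.01e-05), both in the direction of the sum. How reads that match both copies were counted is not given, so the 2 slopes cannot be taken as independent of each other. In RefSeq (assembly GRCz12tu, used for names and order only) the entry with the synonym dre-mir-29b-2 stands directly next to mir29a-1 with no listed gene between, flanked by net1 and mkln1. The entry dre-mir-29b-1 lies at a separate place. A further entry, mir29b3, carries no synonym that matches a row of the deposited table.

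**Figure D5:**
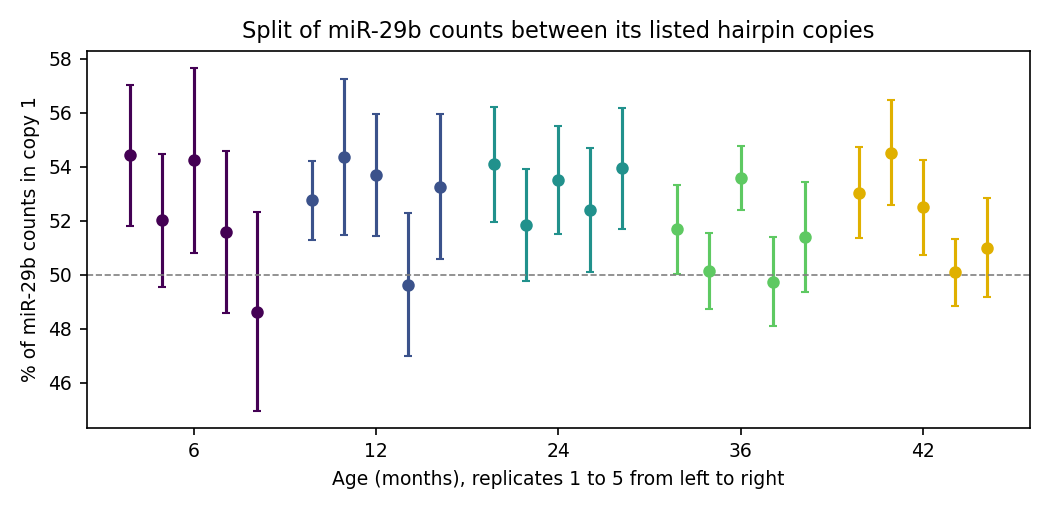
Percent of the miR-29b counts of a library that were listed under copy 1, by age in months, with exact 95% binomial intervals that cover counting error only; the dashed line marks an even split of 50%. Values lie between 48.6% and 54.5%, with 6-month replicate 5 the lowest (48.6%) and 12-month replicate 4 (49.6%) and 36-month replicates 2 (50.1%) and 4 (49.8%) among those near 50%.

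Among 173 miRNAs outside the family that averaged 10 CPM or more, the one most like both members over the 25 libraries was miR-101a (Pearson's r of log2 CPM 0.917 with miR-29a and 0.852 with miR-29b). For miR-29a it was followed by miR-101b (0.876), miR-338 (0.777), miR-125c (0.694) and miR-27b (0.686). For miR-29b it was followed by miR-26b (0.801), miR-101b (0.716), miR-733 (0.661) and let-7a (0.650). Within ages, on deviations from the age means, the r of miR-101a was 0.735 with miR-29a and 0.660 with miR-29b. With miR-29a it was 0.680 for miR-101b, 0.434 for miR-338, 0.320 for miR-125c and 0.499 for miR-27b. With miR-29b it was 0.547 for miR-26b, 0.293 for miR-101b, 0.574 for miR-733 and 0.429 for let-7a. The least alike were miR-457a (-0.848), miR-15c (-0.831) and miR-15b (-0.819) for miR-29a, and miR-15b (-0.819), miR-30c (-0.772) and miR-457a (-0.767) for miR-29b. On deviations from the age means their r, in the same order, was -0.533, -0.521 and -0.446 with miR-29a. With miR-29b it was -0.387, -0.425 and -0.187. These values are a description, chosen as the extremes of many, and libraries of an age share their line.

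miR-29 is often grouped with miRNAs described as restraining proliferation. Of 27 such miRNAs besides miR-29, all of them tested, 7 rose on the linear trend (let-7a, let-7j, miR-15a, miR-26a, miR-26b, miR-101a and miR-101b), 4 fell (miR-15b, miR-15c, miR-34b and miR-34c) and 16 did not pass. The background was 7.61% rising and 13.7% falling, and the median slope was 0.03 in the list and -0.01 over all tested miRNAs. Of 16 miRNAs described as promoting proliferation, among them miR-17a, miR-20a, miR-21 and miR-221, the edgeR trend test called 0. With an unadjusted edgeR p under 0.05, 3 rose and 1 fell, while DESeq2 called 3 as rising and limma-voom 0. The median slope of these 16 was 0.04. By the same rules the restraining list had 9 rising and 5 falling at an unadjusted edgeR p under 0.05. DESeq2 and limma-voom each called 8 of that list as rising and 4 as falling. The shares of 7.61% and 13.7% hold for the adjusted edgeR p only. For the other rules no share over all tested miRNAs is given, so their counts have no background to be read against.

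Markers of other cell types are given beside the rise of miR-29, and their part in it was not tested. The oligodendrocyte miRNAs miR-219 and miR-338 summed to 14873 to 17873 CPM at 6 months, 17618 to 22759 at 12, 14442 to 19522 at 24, 14409 to 23739 at 36 and 18558 to 22006 at 42 months. The endothelial pair miR-126a and miR-126b summed to between 4540 and 7866 CPM in all libraries. The red blood cell miRNAs miR-144 and miR-451 had medians of 1771, 682, 857, 672 and 630 CPM over the 5 ages, and 4 leukocyte miRNAs 1352, 1387, 1083, 1534 and 1511 CPM. The 5 muscle miRNAs had medians of 1358, 1455, 1246, 977 and 1050 CPM, and the 4 of liver and gut 195, 666, 328, 228 and 676 CPM. The 4 of mesenchyme and smooth muscle had medians of 14060, 14078, 13718, 13867 and 12623 CPM. Within that sum miR-199 and miR-214 fell on the linear trend, by 0.53 and 0.51 log2 units per year (edgeR adjusted p 0.00450 and 0.00271), while miR-143 and miR-145 had slopes of -0.01 each and did not pass; the median log2 change of the 4 was -0.68 at 24 against 6 months and -0.93 at 42 against 6 months. Of the other lists, the trend test called miR-338 as rising, and miR-144, miR-451, the 3 skin miRNAs and 3 of the 5 muscle miRNAs (miR-133a, miR-133c and miR-206) as falling. At 24 against 6 months miR-338 was called higher. Lower were miR-142a, miR-142b, miR-144, miR-451, miR-133c, the 3 skin and all 6 epithelial miRNAs (epithelial median log2 change -4.11). So were miR-199 (-1.47) and miR-214 (-1.40), while miR-143 (0.17) and miR-145 (0.04) were not called. At 42 against 6 months miR-338, miR-128, miR-122, miR-192 and miR-194a were called higher. Lower there were miR-144, miR-451, miR-133c, miR-206, the 3 skin and all 6 epithelial miRNAs (-4.48). At 42 against 6 months miR-199 (-1.84) and miR-214 (-1.74) were called lower too, and miR-143 (-0.09) and miR-145 (-0.12) were not called. Of all 197 tested, 27 and 28 were called higher and 36 and 42 lower. No marker of these lists had a total of 0.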

How the data were processed

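The deposited table holds raw counts per miRNA hairpin and library, as its whole numbers and unequal totals show; all 25 columns were used (columns not used: 0). Per the submitters' processing notes the tools included BWA 0.7.12-r1039 and Trimmomatic 0.36, besides CASAVA 1.8.4 and SAMtools 1.3.1-9. Build, annotation, counter and the treatment of multiply matching reads are not given in the sources used. Libraries were prepared with a TruSeq small RNA kit, per the labels' protocols; both arms of a hairpin fall in 1 count.

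Copies were summed by name, and miRNAs were kept with filterByExpr (count minimum 10, total minimum 15), which left out 20. In R 4.3.3, edgeR 4.0.16 was used with TMM scaling and a robust quasi-likelihood fit on 25 libraries. Adjusted p-values are Benjamini-Hochberg values within a comparison, called under 0.05, and the SE is approximated from the F statistic. Log2 CPM used a prior count of 2. DESeq2 1.42.0, limma-voom (limma 3.58.1), other scalings, filters and left-out libraries were tried. Replicates are numbered in order of deposit. miRNAs named as alike are the 5 highest and 3 lowest by Pearson's r with a mean of at least 10 CPM. Members, lists, tests and the limit of 2000 CPM were chosen with earlier results of these data known. Intervals on counts cover counting error only.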

Additional observations from a re-analysis of the deposited data

Results flagged for a closer look

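miR-29b in 42-month replicate 2 stood apart from the other libraries of its age, at 255 CPM against 407 to 448 CPM in replicates 1, 3, 4 and 5. Its gap to the nearest library was 0.788 of the range of that age, above Dixon's critical value for 5 samples. In the same library miR-29a was also the lowest of its age, at 1293 CPM, and the ratio was 19.7 counts of miR-29b per 100 of miR-29a. The limit was applied to 20 groups of 5 (levels of both members, their ratio and the split of copies at each age) and 1 was marked, where chance marks about 1 in 20.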

How the results depend on the processing

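No paired analysis was possible because replicates are numbered in order of deposit and carry no pairing across ages. The linear trend, any age difference and 36 against 6 months kept their direction and call for both members under every alternative run. Without 1 library the slopes ranged from 0.21 to 0.24 for miR-29a and from 0.41 to 0.48 for miR-29b. Calls changed as follows, with log2 changes and the cause not tested. Without the 7 libraries rich in epithelial or skin miRNAs, miR-29b was not called at 24 against 6 months (0.67) or 42 against 6 months (0.99), and the bend of miR-29a had an adjusted p of 0.119. With both sums as covariates the bend had 0.106 (edgeR), and 24 against 6 months was not called for miR-29a (0.43) or miR-29b (0.68). With library totals only, 36 against 24 months was called for miR-29a (0.33) and miR-29b (0.71), and with DESeq2 for miR-29b (0.62), as was 24 against 12 months (0.62). The change of miR-29a at 24 against 12 months was -0.0543 with library totals only and -0.0236 with the covariates. Leaving out 1 library gave ranges of -0.0066 to 0.14 for miR-29a at 24 against 12 months, -0.11 to 0.036 at 42 against 36 months, and edgeR adjusted p 0.00864 to 0.0602 for its bend. For miR-29b the ranges were -0.011 to 0.21 at 12 against 6, 0.51 to 0.78 at 24 against 12, 0.47 to 0.75 at 36 against 24 and -0.43 to -0.17 at 42 against 36 months. The counts that follow span settings that tested unlike numbers of rows, since filters and libraries differed. The setting with copies unsummed counted hairpin entries in place of miRNA names. Counts of miRNAs called moved by over 1.5 times in some settings: from 42 to between 11 and 65 for the trend, 94 to between 25 and 114 for any age, 51 to between 9 and 73 for the bend, 63 to between 7 and 71 for 24 against 6, 70 to between 22 and 83 for 42 against 6, 31 to between 23 and 47 for 36 against 6, 28 to between 10 and 66 for 12 against 6, 20 to between 0 and 38 for 24 against 12, 9 to between 1 and 22 for 36 against 24 and 1 to between 0 and 12 for 42 against 36 months. The edgeR counts of 0 (24 against 12 months in the fit of the 10 libraries or without the 7 rich libraries; 42 against 36 months in the fit of the 10 libraries, with a mean of at least 10 CPM, or without 36-month replicate 2 or 42-month replicate 4) had 22 to 46 miRNAs at an unadjusted p under 0.05. With library totals only, calls were 8 higher and 54 lower at 24 against 6 months in place of 27 and 36, 16 and 52 at 42 against 6 in place of 28 and 42, 12 and 26 at 36 against 6 in place of 16 and 15, 11 and 18 at 12 against 6 in place of 14 and 14, 2 and 28 at 24 against 12 in place of 8 and 12, 12 and 4 at 36 against 24 in place of 5 and 4, and 10 and 38 on the trend in place of 15 and 27; the median change of all moved to -0.12 at 24 against 12 months. Counting error was at most 3.69% for miR-29b, whose smallest count was 736, and 1.60% for miR-29a.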

Other observations

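Libraries with more miR-29b for each miR-29a tended to have a lower share of copy 1 in the miR-29b counts, a pattern that was seen in the data and then measured on the same data. Across 25 libraries the share of copy 1 and the log2 ratio of miR-29b to miR-29a had a Pearson's r of -0.547 (permutation p 0.00451, adjusted over 12 tests 0.0108) and a Spearman's rho of -0.525 (permutation p 0.00798, adjusted 0.016). These permutations ignored the age groups. The 2 libraries farthest from the median share, 6-month replicate 5 and 12-month replicate 4, go against it, with shares of 48.6% and 49.6% at low ratios of 18.8 and 18.1. Leaving them out gave an r of larger size, -0.792 (permutation p 3e-05, adjusted 0.0003). On deviations from the age means r was -0.614 (permutation p 0.00109, adjusted 0.00327), a p-value somewhat too small because the permutations made no allowance for those means. The miR-29b count enters both measures. In 36-month replicates 2 and 4, at 40.9 and 39.3 miR-29b per 100 miR-29a, copy 1 held 50.1% and 49.8%, while in 36-month replicate 3, at 17.9, it held 53.6%.

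The same ratio had no relation with the log2 library total past the threshold over all libraries (r -0.171, permutation p 0.415, adjusted 0.499; rho -0.212, permutation p 0.307, adjusted 0.409). With the 2 libraries of most extreme total left out, r was -0.06 (permutation p 0.787, adjusted 0.787). On deviations from the age means r was -0.4 (permutation p 0.0471, adjusted 0.0807) and rho -0.25 (permutation p 0.225, adjusted 0.337). Here too the permutations made no allowance for the age means, so these p-values are somewhat too small.

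In rank among all 217 miRNAs by count, miR-29a stood at median places of 80, 66, 68, 62 and 63 from 6 to 42 months. Those of miR-29b were 133, 120, 105, 105 and 101.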
